A study of Homo sapiens with 22 samples.

Results

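Transcripts of 10 WNT pathway genes were followed in RPTEC, human renal proximal tubule epithelial cells immortalized with hTERT, after loss and re-expression of SETD2, the methyltransferase that places the H3K36me3 mark. The genes were chosen by name: the R-spondin receptors LGR4, LGR5 and LGR6, the ubiquitin ligase RNF43, the feedback genes AXIN2 and NKD1, the transcription factors LEF1 and TCF7, and the secreted proteins DKK1 and DKK3. All 10 were found among the 36859 genes of the table, in 22 RNA-seq libraries forming 11 groups of 2. A total of 5 groups were kept in 2% serum: WT, WT given TGF-β at 10 ng/mL for 72 h, the clones KO1 and KO2, and the libraries labelled KO2 rescue. The other 6 were grown in 10% serum: Rescue1 and Rescue2, and 4 lentiviral WT lines that carried eGFP or the transcription factors SOX2, OCT2 and PRRX1. Each KO group was 1 single-cell clone, edited by CRISPR in exon 3 of SETD2. The rescue cells were clones of KO cells carrying a lentiviral FLAG-tagged SETD2 under blasticidin. The 4 transduced WT lines were puromycin-selected populations. All lines carried hTERT, maintained with G418. Nothing in the labels says that the 2 libraries of a group came from separate cultures, so p-values measure the spread between these libraries, which may be technical.

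In canonical WNT signalling, a WNT ligand bridges a Frizzled receptor and LRP5 or LRP6, the destruction complex built on AXIN1 or AXIN2 stops degrading β-catenin, and β-catenin acts with TCF/LEF factors on target genes. RNF43 and its homologue ZNRF3 remove Frizzled receptors from the membrane, and R-spondins bound to LGR receptors draw these ligases away. DKK1 blocks LRP5 and LRP6. DKK3 is a divergent member of the DKK family. AXIN2, NKD1, RNF43, LGR5, LEF1 and TCF7 are themselves common targets of the pathway, which is active in the developing nephron and in tubular injury.

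Values are normalized counts, recovered from the deposited log2 values. The depth corresponded to about 7700000 to 19000000 reads per library, at which 3 counts were worth 2.46 to 4.72 normalized counts. Between groups, log2(normalized count + 1) was compared with limma in 1 fit of all 22 libraries and 14585 genes. A gene was called at a Benjamini-Hochberg adjusted p under 0.05 and a log2 change beyond 1. LGR6 and NKD1 did not reach 10 normalized counts in any 2 libraries and were not tested, which left 8 of the 10 genes. SETD2 transcript averaged 1956 in WT, 1088 in KO1, 1051 in KO2 and 10305 and 10105 in Rescue1 and Rescue2. The libraries labelled KO2 rescue held 827, below KO2, and so are named by their label only.

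Markers of the labelled cell type were uneven. Of 12 proximal tubule genes, PAX8, GGT1, CUBN and ANPEP were among those above 10 in all 22 libraries, whereas LRP2, which encodes megalin, did not exceed 2.29, and SLC22A6, SLC22A8 and HNF4A were at 0 throughout. All 6 fibroblast markers were detected, with a summed level of 829 to 12429 in WT, 223367 to 236448 in KO1, 98936 to 102550 in KO2 and 818 to 1524 in the rescue clones. DCN, encoding decorin, made up most of the KO sum, and its mean went from 383 in WT to 228207 in KO1. Only the collagen gene COL1A1 had a lower mean in the KO clones, 928 in KO1 and 3636 in KO2, than in WT at 6226. That WT mean came mostly from replicate 1. The 5 epithelial markers summed to 35455 to 37765 in WT, 10055 to 11997 in KO1 and 19582 to 20579 in KO2. Proximal tubule genes summed to 3514 to 5475 in WT, 7838 to 8484 in KO1, 6683 to 7029 in KO2 and 6877 to 7546 in eGFP-transduced WT. With TGF-β the fibroblast markers summed to 46370 to 47786 and the epithelial markers to 28680 to 30197. COL1A1, at a mean of 45802, made up most of that fibroblast sum. In eGFP-transduced WT the epithelial sum was 19193 to 20192, below WT and below the rescue clones at 35859 to 40448. These shifts lay in the same groups that are compared below, the KO clones, TGF-β, eGFP and rescue, and their part in the results was not tested. Not every member followed them. RNF43 held 27.8 and 9.49 in Rescue1 and 0 in Rescue2, against 119.2 and 115.1 in eGFP-transduced WT. The defining endothelial and leukocyte markers were low, at summed levels of at most 145 and 368. In bulk libraries, fewer cells of a type and less RNA per cell cannot be told apart. The WT replicates differed more than those of any other group, by a median of 0.18 on the log2 scale over 2347 abundant genes, and the collagen gene COL1A1 stood at 11919 in WT replicate 1 and 532 in WT replicate 2. For this reason, results of the members against WT that rest on 1 of its libraries are named. For the other pathway genes only the number called was followed with a library left out.

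Among the members, RNF43 and DKK1 were the genes detected in WT and at 0 in a KO clone. For DKK1, at 1.93 and 34.9 in WT, this rests on WT replicate 2. RefSeq promoter windows on GRCh38.p14, from 250 bases before to 50 after a transcription start, were found for 6 of the 10 genes, LGR4, LGR6, RNF43, LEF1, TCF7 and DKK1. Below are the 250 bases upstream of the RNF43 and DKK1 starts, printed because these genes fell, with capitals marking a TCF/LEF match (CTTTGAT or CTTTGAA, either strand) or a TATA box (TATAAA, either strand).
RNF43 (chr17:58417535-58417784, minus strand): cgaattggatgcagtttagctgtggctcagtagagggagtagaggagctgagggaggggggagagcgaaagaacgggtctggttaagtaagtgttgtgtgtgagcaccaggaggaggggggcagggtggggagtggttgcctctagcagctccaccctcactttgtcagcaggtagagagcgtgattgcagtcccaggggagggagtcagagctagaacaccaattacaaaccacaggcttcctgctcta
DKK1 (chr10:52314031-52314280, plus strand): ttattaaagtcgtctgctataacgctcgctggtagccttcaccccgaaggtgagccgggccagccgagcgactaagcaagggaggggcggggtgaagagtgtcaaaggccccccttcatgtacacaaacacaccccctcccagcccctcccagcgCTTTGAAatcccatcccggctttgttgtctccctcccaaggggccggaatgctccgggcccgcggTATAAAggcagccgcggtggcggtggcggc
The DKK1 window held CTTTGAA, starting 95 bases upstream of the start, and TATAAA 30 bases upstream. No other member window held the TCF/LEF letters, which occurred in 6.88% of 34943 windows. The TATA letters, found in 11.6% of windows, also occurred in 1 TCF7 window. These 2 motifs do not overlap in their letters. Counted over the full 300 bases of a window, of which 250 are printed, the first RNF43 window held 5 CG dinucleotides. A second RNF43 window (chr17:58402672-58402971, minus strand) held 0, and the DKK1 window held 20, against a median of 14 over all windows. A match is a description of letters and not a binding site.

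**Figure D1:**
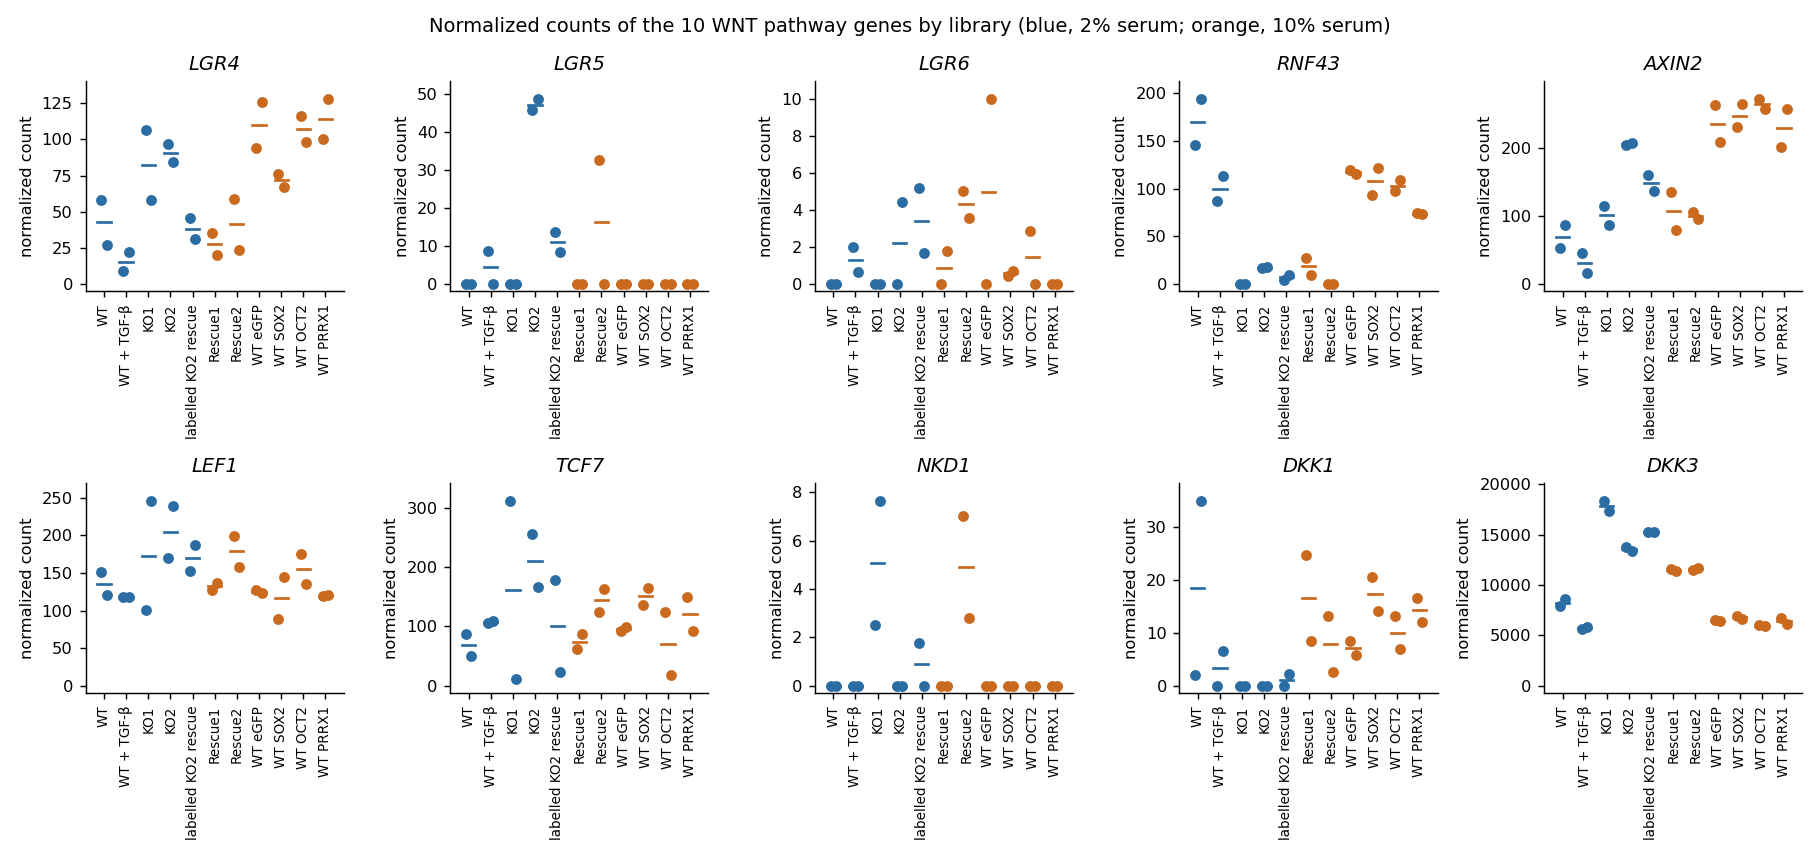
Normalized counts (y axes, linear, each panel on its own scale) of the 10 genes in each of the 11 groups (x axes); points are the 2 libraries of a group, bars their mean, blue 2% serum and orange 10% serum. RNF43 stands at 73.6 or above in every WT-derived library and at 27.8 or below in every library of a KO or rescue clone, and LGR5 is highest in the 2 KO2 libraries, at 45.9 and 48.6.

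RNF43 (ENSG00000108375; GRCh38 chr17:58353676-58417595, minus strand, 10 exons in the reference transcript), the ligase that removes Frizzled receptors, was lost or strongly reduced wherever SETD2 had been knocked out. WT held 146 and 193.6 normalized counts, KO1 held 0 in both libraries, and KO2 held 16.5 and 18.0. No KO library came near a WT library. KO1 was at least 60.5-fold below WT, taking 3 counts per library as the floor (limma, adjusted p = 1.83e-08). KO2 differed from WT by -3.21 ± 0.50 on the log2 scale (SE, limma adjusted p = 0.000158). The clones also differed from each other, with KO1 at least 6.15-fold below KO2 (adjusted p = 4.80e-05). TGF-β left 86.7 and 113.2 counts, below both WT libraries, but the log2 change of -0.76 was not called (adjusted p = 0.374; 95% interval -1.83 to 0.31).

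Re-expression of SETD2 did not bring RNF43 to the WT level. Rescue1 held 27.8 and 9.49 normalized counts, and Rescue2 held 0 in both libraries, although both clones exceeded WT in SETD2. WT with eGFP, matched to them for serum, held 119.2 and 115.1. The rescue clones together differed from eGFP by -4.82 ± 0.43 on the log2 scale (SE, limma adjusted p = 9.69e-07). On average the rescue clones had 9.32 counts and the KO clones 8.62, but this average joins 1 clone at 0 with 1 detectable clone on each side. The libraries labelled KO2 rescue held 4.05 and 9.73, both below KO2, a log2 change of -1.31 that was not called (adjusted p = 0.126). The parental KO clone of the 2 rescue clones is not settled by the sources used here, so no rescue clone was tied to 1 KO clone.

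LGR4 (ENSG00000205213; chr11:27365961-27472790, minus strand, 18 exons), the most broadly expressed R-spondin receptor of the set, was present in all 22 libraries, at 8.70 to 127.6. WT held 57.9 and 27.3 counts and TGF-β-treated WT 8.70 and 22.2, with no overlap between them. The log2 change of -1.44 was not called (adjusted p = 0.0837), and it moved with single libraries. It was -2.07 without TGF-β replicate 2 (adjusted p = 0.0410, called), but -0.81 without TGF-β replicate 1 (adjusted p = 0.502) and -0.91 without WT replicate 1 (adjusted p = 0.414). With an equal total in every library it was -1.66 (adjusted p = 0.0372, called). KO1 held 106.6 and 58.4 and KO2 96.9 and 84.4, all above both WT libraries. Neither increase was called against WT (log2 0.97 and 1.16, adjusted p = 0.171 and 0.126). Against TGF-β-treated WT, however, the KO clones were higher by 2.51 ± 0.47 on the log2 scale (SE, limma adjusted p = 0.000562).

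The rescue clones had less LGR4 than the KO clones and than eGFP-transduced WT. Their mean of 34.6 was near the 42.6 of untransduced WT in 2% serum. Rescue1 held 35.5 and 20.3 and Rescue2 59.1 and 23.4, against 94 and 126.2 in eGFP-transduced WT. The log2 change was -1.39 against the KO clones (adjusted p = 0.00774) and -1.75 against eGFP (adjusted p = 0.0103), with SEs of 0.38 and 0.47. The first of these was not called for Rescue2 alone (-1.16, adjusted p = 0.0632), and it fell just under the fold threshold with an equal total in every library (adjusted p = 0.0373). The second was not called without eGFP replicate 2 (adjusted p = 0.0936). The rescue and KO libraries also differ in serum. The libraries labelled KO2 rescue, which do not differ from KO2 in serum, held 45.5 and 31.1, a log2 change of -1.24 that was not called (adjusted p = 0.185). The eGFP line exceeded untransduced WT in 2% serum by a log2 change of 1.43 that was not called (limma adjusted p = 0.0642). That change ranged from 0.90 to 1.96 with a library left out, 1.96 being without WT replicate 1. With a pseudocount of 5 it was called (1.34, adjusted p = 0.0497). Serum and transduction cannot be told apart there.

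LGR5 (ENSG00000139292; chr12:71439798-71586310, plus strand, 18 exons), a receptor best known as a stem cell marker, was at 0 in 16 of 22 libraries. KO2 held 45.9 and 48.6 counts, at least 18.0-fold above WT at 0 (adjusted p = 0.00303). KO1 was at 0 in both libraries and at least 16.8-fold below KO2 (adjusted p = 0.00672). Outside KO2, LGR5 was found at 13.8 and 8.47 in the libraries labelled KO2 rescue, at 32.7 in 1 Rescue2 library and 8.79 in 1 TGF-β library. Their partner libraries in Rescue2 and TGF-β were at 0. The lower value in the labelled KO2 rescue was not called (log2 -2.03, adjusted p = 0.393). LGR6 (ENSG00000133067; chr1:202193799-202319781, plus strand), the remaining R-spondin receptor, was at 0 in 10 libraries and reached 9.98 in 1 eGFP library. The levels of LGR6 were too low to compare at this depth.

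AXIN2 (ENSG00000168646; chr17:65528563-65561648, minus strand, 11 exons), the scaffold that the pathway induces as its own brake, fell with TGF-β and rose in KO2. WT held 52.9 and 86.2 counts, TGF-β-treated WT 45.8 and 16.5, KO1 115.0 and 87.2, and KO2 204.1 and 207.7. The TGF-β libraries lay below both WT libraries and differed by -1.26 ± 0.39 on the log2 scale (SE, limma adjusted p = 0.0359). That call was lost without WT replicate 2 (-0.91, adjusted p = 0.267) or TGF-β replicate 2 (-0.55, adjusted p = 0.405). KO2 was higher than WT by 1.59 ± 0.39 (adjusted p = 0.00574), which was not called without WT replicate 1 (1.25, adjusted p = 0.0648). Both KO1 libraries were also above WT, but the change of 0.56 was not called (adjusted p = 0.279), nor was the difference of -1.03 between the clones (adjusted p = 0.0885), although the latter was called with an equal total in every library (-1.21, adjusted p = 0.0440). The KO clones together were above TGF-β-treated WT by 2.34 ± 0.34 (adjusted p = 5.69e-05).

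In 10% serum, AXIN2 was higher in the eGFP line than in WT, and lower in the rescue clones than in the eGFP line. WT with eGFP held 263.3 and 209.1, a log2 change of 1.78 ± 0.39 over untransduced WT in 2% serum (adjusted p = 0.00313). Serum and transduction cannot be told apart in this comparison. Rescue1 held 135.7 and 79.9 and Rescue2 105.5 and 95.9, all below both eGFP libraries, with a log2 change of -1.19 ± 0.34 (adjusted p = 0.0147). This call was lost without Rescue1 replicate 2, which left it just under the fold threshold (adjusted p = 0.0483), or eGFP replicate 1 (-1.02, adjusted p = 0.141). Against the KO clones the rescue clones differed by -0.48, which was not called (adjusted p = 0.167). This average joins 0.031 against KO1 alone (adjusted p = 0.953) with -1.001 against KO2 alone, which was called (adjusted p = 0.0317). The libraries labelled KO2 rescue held 160.5 and 137.1, a log2 change of -0.47 from KO2 (adjusted p = 0.564). NKD1 (ENSG00000140807; chr16:50548396-50649249, plus strand), a Dishevelled-binding feedback inhibitor, was at 0 in 17 libraries. The 5 libraries with NKD1 were both KO1 libraries at 2.51 and 7.63, both Rescue2 libraries at 7.02 and 2.79, and 1 labelled KO2 rescue library at 1.77. Most of these values are close to the floor.

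LEF1 (ENSG00000138795; chr4:108047545-108168956, minus strand, 12 exons) encodes a TCF/LEF factor. It ranged from 89.0 to 245.6 over all libraries and was called in none of the 12 comparisons. WT held 151.0 and 120.5, KO1 100.7 and 245.6, and KO2 170.6 and 239.4. The KO1 libraries lay on either side of WT. The log2 change from WT was 0.22 in KO1 (95% interval -0.53 to 0.97) and 0.58 in KO2 (-0.17 to 1.33), and the latter interval includes a log2 change of 1. Changes of -0.19 with TGF-β, -0.11 with eGFP and serum, -0.22 between rescue and KO clones and 0.29 between rescue clones and eGFP were likewise not called. TCF7 (ENSG00000081059; chr5:134114681-134151865, plus strand, 10 exons), which encodes TCF1, varied widely within groups. KO1 held 311.3 in 1 library and 10.9 in the other. The labelled KO2 rescue held 178.8 and 23.1, and the OCT2 line 124.0 and 18.4. WT held 86.6 and 50.9 and KO2 255.7 and 165.8, which did not overlap. The log2 changes of -0.14 in KO1, 1.62 in KO2 and 0.69 with TGF-β had SEs of 1.19 each and were not called.

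DKK1 (ENSG00000107984; chr10:52314281-52318042, plus strand, 4 exons), the secreted LRP5/6 antagonist whose promoter is printed above, was at 0 in all 4 KO libraries. WT held 1.93 and 34.9 counts, so the WT mean of 18.4 ± 23.3 (SD, n = 2) came almost wholly from replicate 2. KO1 was at least 6.56-fold and KO2 at least 5.44-fold below WT (adjusted p = 0.0318 and 0.0414). Neither call was stable. Without WT replicate 2 both were lost (adjusted p = 0.360 and 0.418), and WT replicate 1 alone, under the floor, gives no bound. Both were also lost without either library of the KO clone (adjusted p = 0.0831 and 0.0960 for KO1, 0.128 and 0.128 for KO2) and with a pseudocount of 5 (0.0596 and 0.0744). The KO2 call was further lost with no filter on low values (adjusted p = 0.0599). All 4 rescue libraries had DKK1, at 24.8 and 8.35 in Rescue1 and 13.2 and 2.55 in Rescue2. The rescue clones were higher than the KO clones (adjusted p = 0.00336), a call that held without each of the 8 libraries in turn. Rescue1 was at least 5.90-fold above KO1 and 4.90-fold above KO2. Rescue2 was at least 2.81-fold above KO1 and 2.33-fold above KO2. These bounds rest on replicate 1 of each rescue clone. Replicate 2 alone puts Rescue1 at least 2.98-fold and 2.47-fold above KO1 and KO2, and for Rescue2 it lies under the floor and gives no bound. They differed from eGFP-transduced WT, at 8.50 and 5.86, by a log2 change of 0.38 that was not called (95% interval -1.77 to 2.53). Rescue and KO cells differ in serum. TGF-β-treated WT held 0 and 6.58, a log2 change of -1.90 that was not called (adjusted p = 0.328). It was -3.70 without WT replicate 1 (adjusted p = 0.0487, called) and -0.091 without WT replicate 2, and -0.44 and -3.36 without TGF-β replicates 1 and 2, neither called. The labelled KO2 rescue held 0 and 2.26.

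DKK3 (ENSG00000050165; chr11:11956207-12009769, minus strand, 7 exons) was by far the most abundant of the 10 per kilobase of transcript, with a median level of 3260 normalized counts per kb against 38.0 for LEF1, 34.9 for AXIN2, 32.8 for TCF7, 16.3 for RNF43 and 12 for LGR4. WT held 7862 and 8599 counts, KO1 18306 and 17291, KO2 13771 and 13350, and TGF-β-treated WT 5593 and 5824. The 4 groups did not overlap. The log2 change was 1.11 ± 0.06 in KO1 (SE, adjusted p = 9.50e-10, called) and 0.72 in KO2 (adjusted p = 2.03e-07, under the fold threshold). With TGF-β it changed by -0.53 (adjusted p = 1.63e-05, under the threshold), and KO clones exceeded TGF-β-treated WT by 1.44 ± 0.05 (adjusted p = 9.28e-12, called). KO1 was above KO2 by 0.39 (adjusted p = 0.000292). The KO1 rise was under the threshold at 0.70 when every library was given the same total and at 0.84 after quantile normalization. With the same total in every library, the median of all genes moved by -0.39 in KO1 and by -0.20 in KO2 and with TGF-β. It moved by 0.37 between rescue and KO clones and by -0.21 between KO1 and KO2.

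On the normalized counts used here, the DKK3 level in the rescue clones lay between KO and WT. Rescue1 held 11587 and 11377 and Rescue2 11432 and 11669, below every KO library and above every WT-derived library. The log2 change was -0.43 against the KO clones (limma adjusted p = 5.50e-07) and 0.84 against eGFP at 6507 and 6376 (adjusted p = 1.29e-08). Neither reached the fold threshold. The place below the KO clones rests on the scaling used. Totals were 11674491 to 12093340 normalized counts in the rescue libraries and 14571709 to 16758645 in the KO libraries. When all libraries were given equal totals, the median of all genes moved by 0.37 between rescue and KO clones. The labelled KO2 rescue was at 15239 and 15201, a log2 change of 0.17 from KO2 (adjusted p = 0.0869). eGFP-transduced WT differed from WT by -0.35 (adjusted p = 0.000334, under the threshold).

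**Figure D2:**
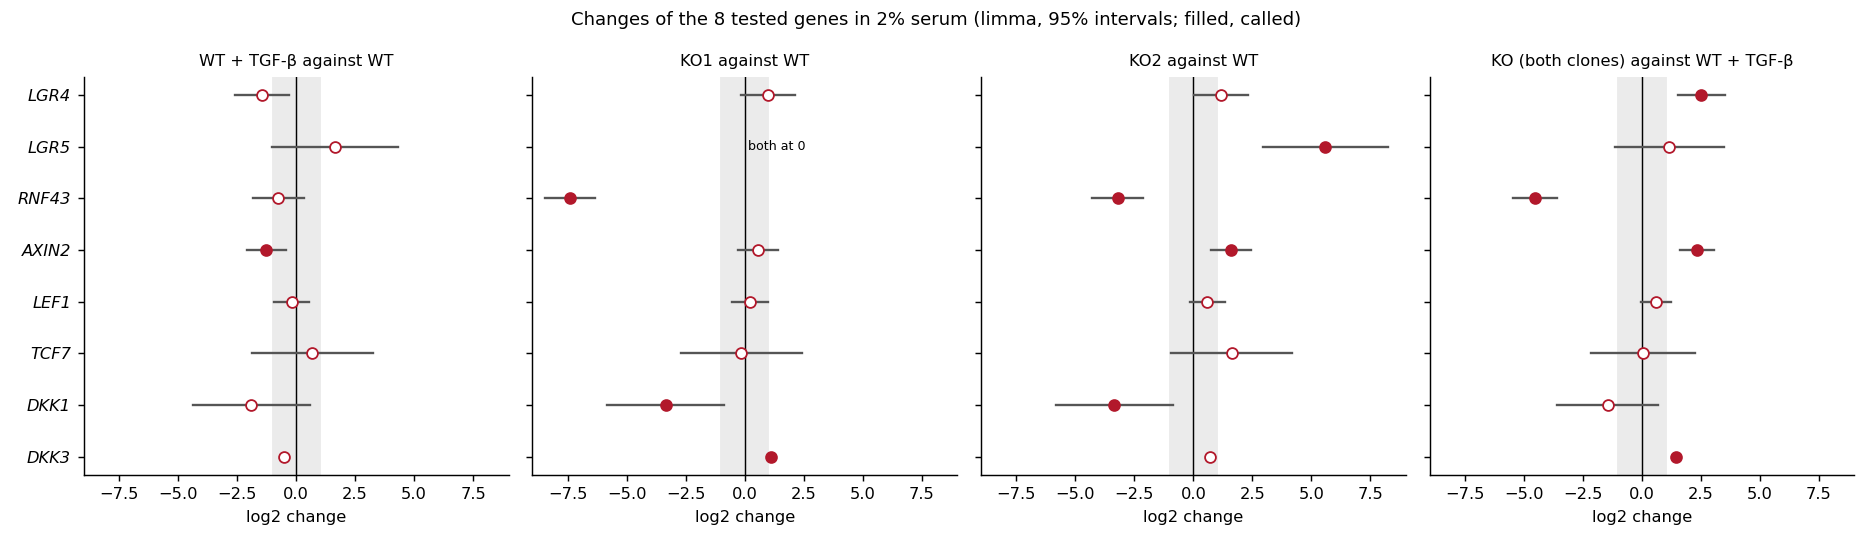
Fitted log2 changes (x axes) of the 8 tested genes (y axis) for TGF-β treatment, for KO1, for KO2 and between the KO clones and TGF-β-treated WT; points are estimates, lines 95% intervals, filled points called and the grey band a log2 change within 1. RNF43 is lower in both KO clones, LGR5 and AXIN2 are higher in KO2, and LGR4, AXIN2 and DKK3 are higher in KO clones than with TGF-β.

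Counted together, 1 of the 8 tested genes was called with TGF-β (AXIN2, lower), against 7.84% of all 14585 genes. In KO1, 3 of the 8 were called, RNF43 and DKK1 lower and DKK3 higher, against 25% of all genes. In KO2, 4 of the 8 were called, RNF43 and DKK1 lower and LGR5 and AXIN2 higher, against 16.3%. The median log2 change of the 8 was 0.11 in KO1, 0.94 in KO2 and -0.64 for TGF-β treatment, each beside a median of 0.00 over all genes. These 3 comparisons share the WT libraries. Between the clones 2 genes were called, LGR5 and RNF43, against 6.97%. Between KO clones and TGF-β-treated WT 4 were called, against 20.2%. Between rescue and KO clones 2 were called, LGR4 lower and DKK1 higher, against 23.3%, a share close to that of all genes. Between rescue clones and eGFP 3 were called, all lower (LGR4, RNF43 and AXIN2), against 13.1% of all genes in either direction and 6.66% lower. Of eGFP against WT 1 was called, AXIN2 higher, against 12.7%. Between labelled KO2 rescue and KO2, 0 were called by limma, against 4.17%, and 3 had an unadjusted p under 0.05. The share of all genes at that looser threshold was not counted. Without the fold threshold, 1507 of 14585 genes already had an adjusted p under 0.05 there.

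**Figure D3:**
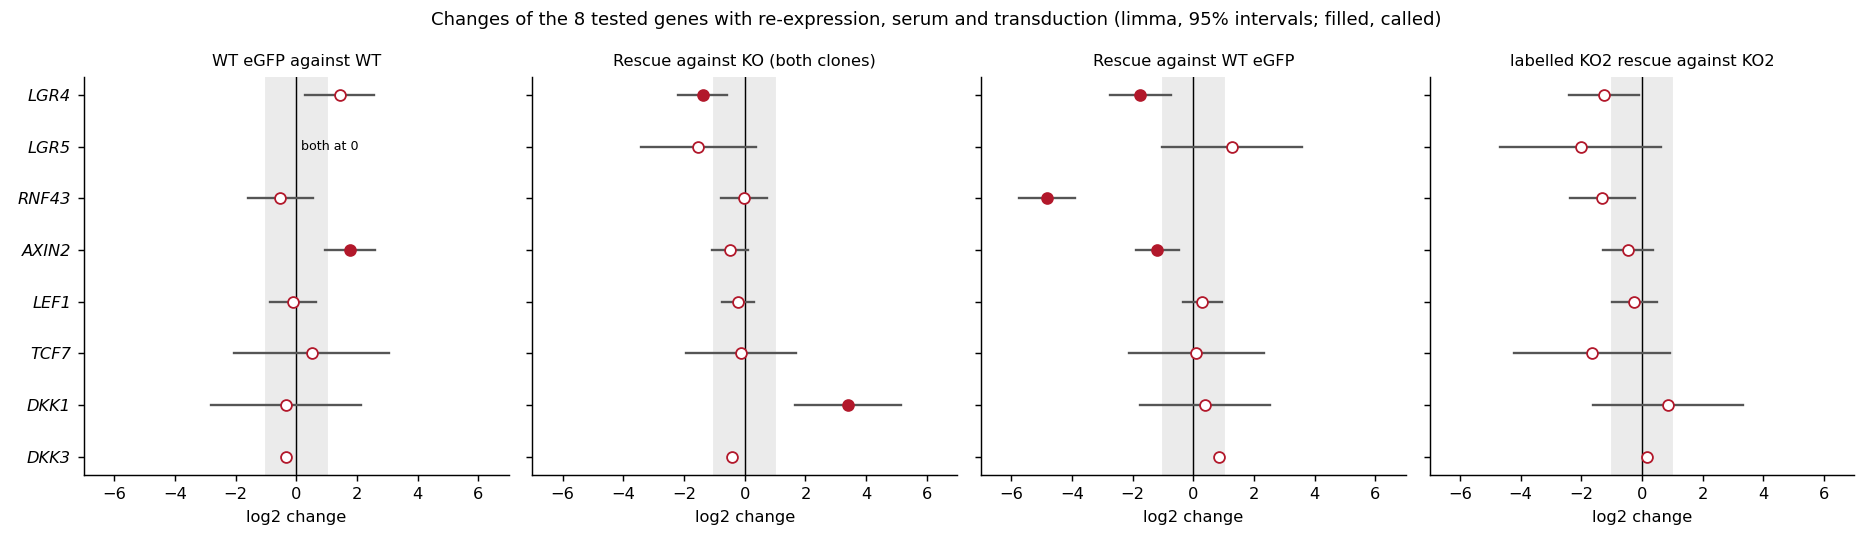
Fitted log2 changes (x axes) of the 8 tested genes (y axis) for eGFP-transduced WT against WT, rescue clones against KO clones, rescue clones against eGFP, and labelled KO2 rescue against KO2; points are estimates, lines 95% intervals, filled points called and the grey band a log2 change within 1. DKK1 is the gene called higher and LGR4 the gene called lower between rescue and KO clones, while RNF43 is at -4.82 against eGFP.

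The SOX2, OCT2 and PRRX1 lines, WT cells given transcription factors, gave 0 called members of 8 against the eGFP line by limma, and 0 at an unadjusted p under 0.05, with 0.0206%, 0.0343% and 0.0411% of all genes called. RNF43 held 93.7 and 121.5 counts with SOX2, 97.9 and 108.8 with OCT2, and 74.0 and 73.6 with PRRX1. The PRRX1 libraries were both below the eGFP libraries, at a log2 change of -0.66 (95% interval -1.73 to 0.41). The intervals with SOX2 (-1.20 to 0.94) and OCT2 (-1.25 to 0.89) also included a log2 change of -1. AXIN2 held 201.3 to 271.7 counts in these 3 lines, DKK3 5885 to 6947, DKK1 6.87 to 20.6 and LGR4 66.8 to 127.6. LGR5 and NKD1 were at 0 in all 6 libraries.

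The rest of the pathway was read from 7 role lists and 1 list of ligands, together 77 genes besides the members, of which 67 were in the table and 44 were tested. In KO1, 9 of the 44 were higher and 8 lower, 38.6% against 25% of all genes. In KO2, 7 were higher and 7 lower, 31.8% against 16.3%. TGF-β changed 5, 11.4% against 7.84% of all genes. Between rescue and KO clones 11 differed, 25% against 23.3%. Between eGFP-transduced WT and WT, both with SETD2 intact, 11 also differed, 25% against 12.7%. The median log2 change was -0.20 in KO1 and -0.04 in KO2 against 0.00 over all genes.

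Of the receptors, 2 of 12 tested rose and 2 fell in KO1, and 2 rose and 3 fell in KO2. FZD1, a Frizzled receptor, rose in both clones (log2 1.72 and 1.31) and FZD10, another, fell in both, from 71.4 normalized counts in WT to 1.34 in KO1 and 16.5 in KO2. ROR1, a receptor for WNT5A, had the lowest value of the list in KO1, at 0 against 266.1 normalized counts in WT (adjusted p = 1.48e-05). In KO2 it stood at 236.1 (log2 -0.17, adjusted p = 0.937), and the clones differed (adjusted p = 9.65e-05). LRP5, the WNT co-receptor, had the highest value in KO1 (3.20 ± 1.11, SE, limma adjusted p = 0.0324). It went from 3.38 in WT, near the floor, to 39.6, and its 2.44 in KO2 was not called (adjusted p = 0.120). In the R-spondin module, ZNRF3, the homologue of RNF43, fell in KO1 (-1.42, adjusted p = 6.56e-07), and its value of -0.96 in KO2 was under the fold threshold (adjusted p = 5.09e-05). Of 9 cytoplasmic components 1 rose in each clone, DVL3 in KO1 and CSNK1A1 in KO2. Among the co-activators, BCL9L rose in KO1 (1.24 ± 0.18, SE, limma adjusted p = 4.74e-05), from 2569 normalized counts in WT to 5844. Its log2 change of 0.38 in KO2 was not called (adjusted p = 0.125). PYGO2, which links BCL9 to chromatin, rose in KO2 (3.02 ± 1.06, SE, limma adjusted p = 0.0447). It went from 2.90 normalized counts in WT, near the floor, to 30.3 in KO2. In KO1 it had a log2 change of -0.39 that was not called.

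Of the 6 intracellular and membrane inhibitors tested, 1 rose and 2 fell in KO1, and 2 rose and 2 fell in KO2, AXIN2 included. KREMEN1 and KREMEN2, the transmembrane partners of DKK1, fell in both clones (KREMEN1 -1.18 and -1.42), and KREMEN2 was at 0 in KO libraries against 14.3 in WT. DACT1, a Dishevelled-binding regulator, rose in both (3.92 and 2.84). Of the 9 common targets tested, members included, 1 rose and 3 fell in KO1 and 2 rose and 2 fell in KO2. TNFRSF19 was among those that fell in both (-5.08 and -1.84), and CCND1, encoding cyclin D1, rose in KO1 (1.45) and had a log2 change of 0.12 in KO2 that was not called. Of the 7 ligands tested, WNT2 went from 0 in WT to 10802 in KO1 and 2893 in KO2, WNT5A rose (5.14 and 4.18) and WNT7A fell (-5.65 and -3.31). In the rescue clones against KO, FZD1, LRP5, CSNK1A1, DACT1, WNT2 and WNT5A were lower, each called. ROR1, the common target SP5, TNFRSF19, KREMEN2 and WNT7A were higher, each called. Serum also differs between rescue and KO libraries. The ROR1 call was carried by KO1 at 0, since KO2 at 236.1 lay between Rescue1 at 353.9 and Rescue2 at 206.4. LRP5 was low in the rescue clones, at 3.81 and 7.99. The WNT7A call was carried by Rescue2 at 602.1 normalized counts, since Rescue1 at 28.7 lay below KO2 at 80.6. KREMEN2 reached only 4.59 and 2.15 in the rescue clones.

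Several of these genes also moved in cells with SETD2 intact. With TGF-β, DACT1 (log2 2.81), WNT5A (1.96) and CCND1 (1.82) rose in WT. In eGFP-transduced WT, where serum and transduction cannot be told apart, FZD1 (1.12), DACT1 (1.74) and WNT2 (4.90) were higher and FZD10 (-3.24) and WNT7A (-1.60) lower than in WT, each called. WNT2 in the eGFP line was nevertheless at 28.9 normalized counts, far below either KO clone.

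**Figure D4:**
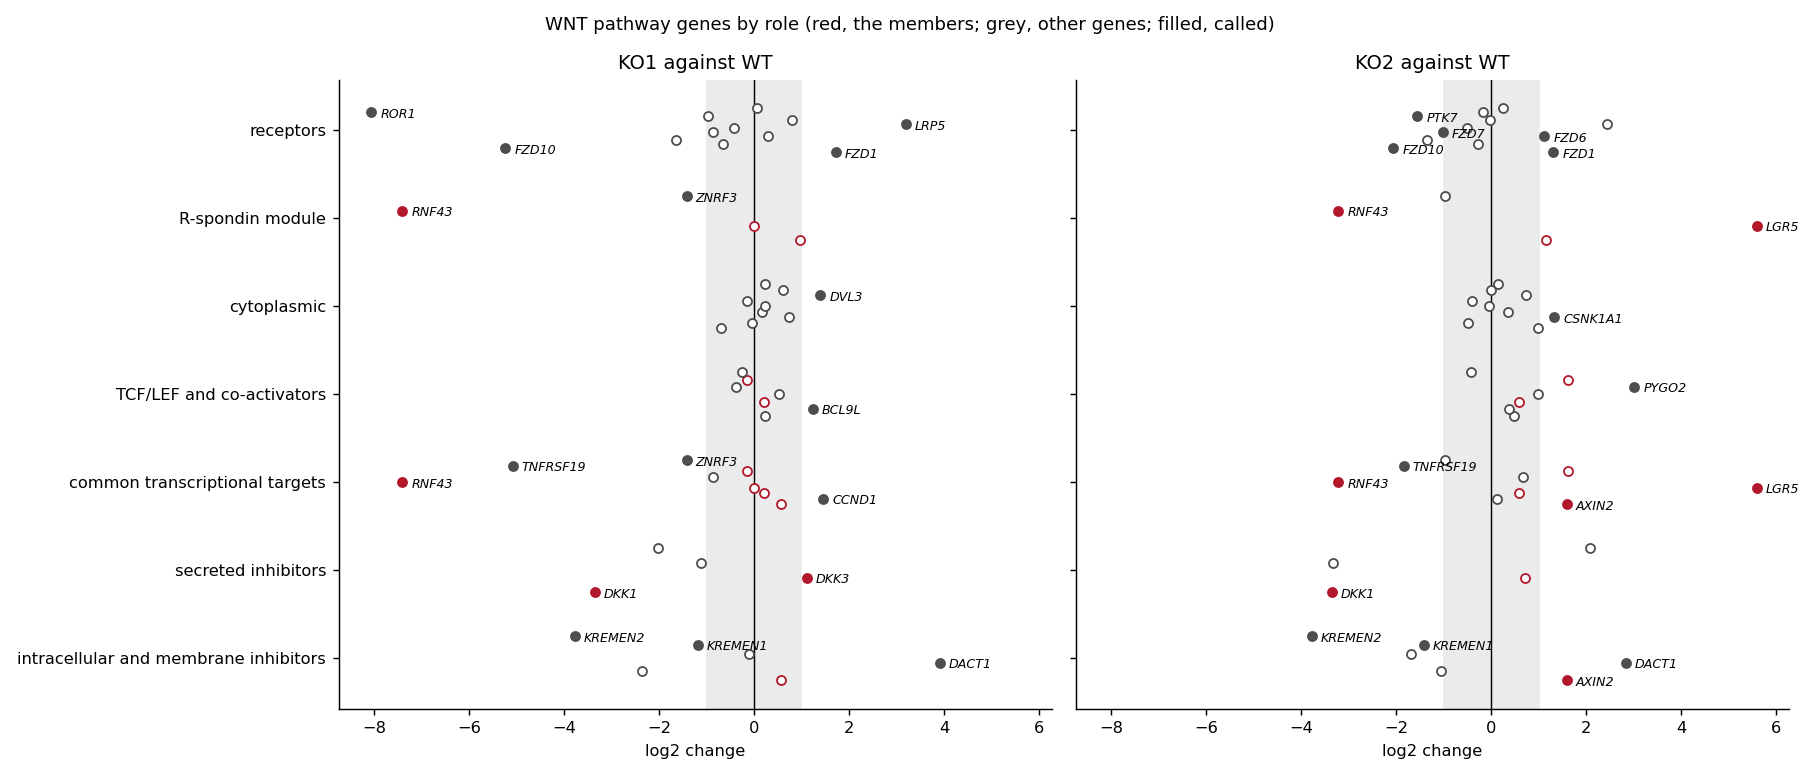
Fitted log2 changes (x axes) of the tested pathway genes in KO1 and KO2 against WT, by role (y axis, genes spread within a row, and a gene in 2 lists drawn in both); red, the 10 members, grey, other genes, filled and named where called, and the grey band a log2 change within 1. Receptors, common targets and the intracellular and membrane inhibitors hold called genes on both sides of 0 in each clone, whereas the secreted inhibitors do so in KO1 only, and RNF43 is among the lowest in both clones.

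Genes with the most similar pattern were sought over the 11 group means among 11660 genes whose means spanned at least 1 on the log2 scale, and Pearson r is given as a description of 11 points that share clones, serum and normalization. For RNF43 these were ITGA2B (r = 0.961), MANEAL (0.945) and EFNA5 (0.941). For AXIN2 they were THSD4 (0.966), TAF12 (0.961) and PTPRG (0.955). For LGR4 they were KCNK2 (0.963), STEAP2 (0.953) and SAA2 (0.953). For LGR5 the first was ENSG00000278728, listed with no symbol (0.956), then NOVA1 (0.921) and DACH1 (0.915). For DKK1 they were SPATA5 (0.949), ZIK1 (0.948) and HJURP (0.947), and for DKK3 SLC37A2 (0.981), UBE2Q2P13 (0.975) and VAMP1 (0.974). TCF7 had the weakest partners, ZNF469 (0.850), MMP16 (0.846) and BAG4 (0.800). LEF1 spanned less than 1 and was left out.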

How the data were processed

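Stranded mRNA libraries from RPTEC were sequenced. Per the labels, the authors quantified transcripts with Salmon 1.9.0 on hg38 and used DESeq2 1.26.0. The deposited values are log2 values in 36859 genes and 22 libraries with a shared minimum of 11.3. The transform is not named in the sources used here. Read as a variance-stabilizing scale, it was inverted to normalized counts. The commonest low value of each library was taken as 1 read. Some values lie below it, such as LGR6 at 0.45 in SOX2 replicate 1, where 1 read was 0.838. The deposited scale compresses low genes, so tests used log2(normalized count + 1). The design (limma 3.58.1 with trend, all libraries, group means) tested 14585 genes, those reaching 10 normalized counts in 2 or more libraries. Totals were 11674491 to 16758645 normalized counts per library; floors cover counting error only. Samples were grouped by their labels.

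The members, gene lists and tests were chosen with earlier results of these data known. Named genes were the members, pathway genes called in both KO clones the same way or highest or lowest of a list, and SETD2. Gene positions come from GENCODE 44, matched by Ensembl identifier, and lengths per kb from its canonical transcripts. Alternatives were the pseudocount, the filter, the scaling, the deposited scale, the fold threshold, the libraries fitted, a replicate block and each library left out. Replicate numbers did not pair the libraries (7 of 55 group pairs correlated above 0.1). Promoter sequences are RefSeq's.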

Additional observations from a re-analysis of the deposited data

Results flagged for a closer look

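Of the members, 2 changed differently in the 2 KO clones by the test of the difference between the clones, which share the same WT libraries. LGR5 was at least 16.8-fold lower in KO1, at 0, than in KO2 (limma, adjusted p = 0.00672). RNF43 was at least 6.15-fold lower in KO1, at 0, than in KO2 (adjusted p = 4.80e-05), and it was below WT in both. Each clone is 1 single-cell isolate, so a difference between clones and the effect of the knockout within a clone cannot be told apart. With 2 libraries in a group, single libraries were not tested for standing apart.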

How the results depend on the processing

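Leaving aside the fits with a library left out, 502 of 552 member changes kept their direction and their side of the threshold. Of the others, 36 lost a call, 10 gained one and 4 reversed. On the deposited log2 scale, which compresses low genes, 0 members were called in every comparison, although RNF43 in KO1 kept an adjusted p of 1.54e-08, and pathway calls fell to 1 with TGF-β and to 2 in KO1, KO2 and between rescue and KO clones. Fitting only the libraries compared, which leaves fewer of them to estimate the spread, gave 0 members with TGF-β, between the clones and for eGFP against WT and 2 in KO2, and 0 pathway genes with TGF-β and 9 in KO1. A mean of at least 50 normalized counts, which removes the low genes, gave 2 members in KO2, 1 between the clones and 1 between rescue and KO clones. Giving each library the same total gave 2 with TGF-β and 1 between rescue and KO clones. A pseudocount of 5 gave 2 for eGFP against WT. Without the fold threshold there were 2 members with TGF-β and 2 for eGFP against WT, and 11 pathway genes with TGF-β and 19 between rescue and KO clones. Rescue clones against KO2 alone gave 5 members and 7 pathway genes.

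With 1 library left out, the members called ranged from 0 to 2 with TGF-β, 2 to 3 in KO1, 3 to 3 in KO2, 2 to 3 between the clones, 4 to 4 between KO clones and TGF-β, 2 to 3 between rescue and KO clones, 2 to 4 between rescue clones and eGFP, and 1 to 2 for eGFP against WT. Pathway calls ranged from 5 to 7, 14 to 17, 12 to 14 and 9 to 12 with TGF-β, in KO1, in KO2 and between rescue and KO clones. In these fits the lone library is assumed to vary like the other groups. The changes that reversed had not been called. LEF1 reversed with equal totals to -0.19 in KO1 and 0.17 between rescue and KO clones, and with a library left out it ranged from -0.42 to 0.86, from -0.54 to 0.10 and, for eGFP against WT, from -0.27 to 0.053. TCF7 in KO1 reversed to 0.063 on the deposited scale and ranged from -2.50 to 2.21 with a library left out. AXIN2 in rescue clones against KO1 alone was 0.031. With a library left out, DKK1 in rescue clones against eGFP ranged from -0.12 to 0.88, and RNF43 with SOX2 from -0.32 to 0.053. The causes were not tested.

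The replicate numbers did not pair the libraries, and 12 of 22 libraries correlated best with their own number. With the replicate block, 3 members were called in KO2 in place of 4, since DKK1 was lost (adjusted p = 0.0502), and no other member changed its call. Over all genes, fitting only the libraries compared gave 0 calls with TGF-β in place of 1143, 1912 in KO1 in place of 3653, 1 between the clones in place of 1016 and 715 for eGFP against WT in place of 1856. The deposited scale gave 178 in KO1 and 94 in KO2. Depth limits LGR5, LGR6, NKD1 and DKK1, whose values lie near 3 counts in many libraries.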
